A study of Mus musculus with 18 samples.

Results

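Perinatal endothelial cells line the vessels of the fetal and newborn bone marrow (BM), and their transcripts were followed here from embryonic day (E) 16.5 through E18.5 to the day of birth (P0). A stromal cell was counted as a member where its barcode carried 2 or more UMIs, the unique molecular identifiers that each mark 1 captured transcript, summed over Cdh5, the cadherin of endothelial junctions, and Pecam1, which encodes the surface protein CD31. This rule took 453 of 28952 stromal cells. It took 86 of 8226 at E16.5, or 1.05% with an exact Clopper-Pearson 95% interval of 0.837% to 1.29%. At E18.5 it took 112 of 6642, or 1.69% (1.39% to 2.03%), and at P0 255 of 14084, or 1.81% (1.60% to 2.04%). The intervals cover counting error only, and those of E16.5 and the later stages did not overlap.

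The study profiled sorted hematopoietic progenitors and stromal cells of murine BM before birth, at birth and in the adult, with 56201 cells and 20275 genes in 9 mRNA libraries. The 3 groups used here are CD45-Ter119- BM cells, that is BM cells without the pan-leukocyte and red-cell surface markers, of E16.5, E18.5 and P0 mice of strain C57B6/J. The adult CD45-Ter119- BM cells of the same strain, whose age the labels do not give, serve as a reference chosen by the same rule. Each stage is 1 library made from several pooled mice, so differences between stages carry no replicate error and were not tested. Per the study's methods, perinatal cells came from the whole skeleton without the head bones and adult cells from tibias, femurs, pelvic bones and spines, so age, bone and library cannot be told apart. Members held a median of 11187, 11888 and 12049 UMIs per cell, against 12912.5, 15698 and 13649 in the other stromal cells. Their summed counts, which set the precision of every level below, were 1087053 UMIs at E16.5, 1388692 at E18.5 and 3504187 at P0.

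BM vessels are built from arteries and arterioles, capillaries and the wide, leaky sinusoids that carry blood cells out. Endothelial cells grow under vascular endothelial growth factor (VEGF) through its receptors, and Notch signalling between neighbouring cells sets the arterial programme. They also feed blood formation, since BM endothelium is a known source of stem cell factor (Kitl) and of the chemokine Cxcl12, which retains hematopoietic stem and progenitor cells in the marrow.

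The genes that chose the members are given as a description. Cdh5 stood at 655, 793 and 688 CPM (counts of the gene divided by all counts of the group, scaled to 1000000) in the members of E16.5, E18.5 and P0, against 0.319, 0.477 and 0.758 CPM in all other stromal cells. Pecam1 stood at 429, 667 and 658 CPM in members and at 0.406, 0.774 and 0.988 CPM in the other cells. Both transcripts were present in 71, 81 and 200 members of the 3 stages, Cdh5 alone in 14, 21 and 44, and Pecam1 alone in 1, 10 and 11. At the edge of the rule, the 7, 16 and 42 members with exactly 2 UMIs held a median of 8, 10.5 and 9 UMIs of the 21 pan-endothelial genes, a list without Cdh5 and Pecam1. The 84, 139 and 334 cells just outside, with 1 UMI, held a median of 3, 2 and 2. Members with 5 or more UMIs held 80, 113.5 and 107. No cell barcode was shared among the members of the 3 libraries, while 85 of the 28863 distinct barcodes of the perinatal stroma occurred in more than 1 library.

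The endothelial label held for most members and not for all of them. The deposited annotation placed 71, 85 and 198 of the members in its endothelial clusters, which is 82.6%, 75.9% and 77.6%, and it placed 15, 27 and 57 in fibroblast, cartilage and other clusters. The 99 members outside had a median of 6, 11 and 11 pan-endothelial UMIs, against 80, 112 and 105.5 in those inside. CD31 protein, read by an antibody tag, separated them in the same way. Its count exceeded the 99th percentile of the other stromal cells in 98.6%, 91.8% and 90.9% of the members inside, and in 0 of 15, 2 of 27 and 6 of 57 of those outside. Both contrasts are a description. CD31 is the protein of Pecam1, a gene of the rule, and the deposited clusters came from the transcripts of these same cells. Summed over stages, the members outside carried the 5 fibroblast genes at 7929 CPM, against 1076 CPM inside and 4035 CPM in the other stromal cells. Genes high in the members outside were Cldn1, a tight junction claudin, at 162 CPM against 3.46 in other stromal cells, Igfbp6, which binds insulin-like growth factors, at 901 against 84.4, and Apod, a lipid carrier, at 265 against 24.1. Cldn1 had no count in the members inside. These genes, like Cldn1, were picked after their values were seen. Several counts below are also given for the 354 members inside, an alternative chosen after seeing the data.

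**Figure D1:**
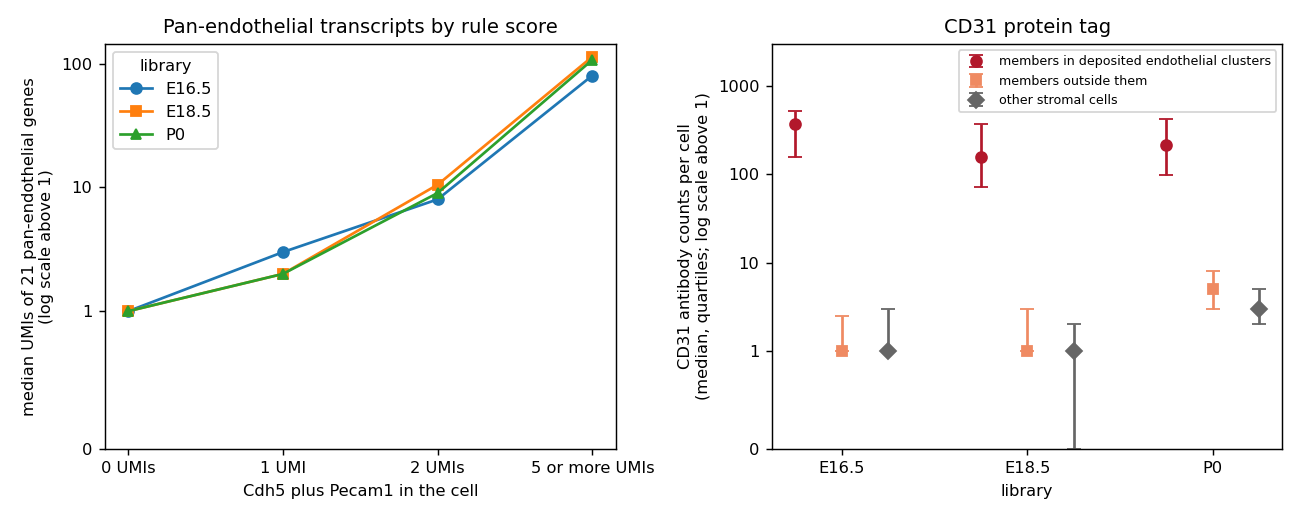
Left, the median UMIs per cell of 21 pan-endothelial genes (y axis, log scale above 1) against the UMIs of Cdh5 plus Pecam1 in the cell (x axis), 1 line per library. Right, CD31 antibody counts per cell (y axis, log scale above 1; points are medians, bars quartiles) by library. Members in the deposited endothelial clusters had medians of 368, 158 and 212.5, and members outside them 1, 1 and 5, beside 1, 1 and 3 in the other stromal cells.

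Blood cell transcripts were scarce in the members. Ptprc, the gene of CD45, had 0 counts in the members of all 3 libraries. The 10 leukocyte genes summed to 16.6, 14.4 and 14.3 CPM, against 4.44, 6.70 and 8.96 in the other stromal cells, and the megakaryocyte and platelet genes to 16.6, 14.4 and 15.4 against 4.99, 4.38 and 5.26. Of these lists 1 gene each was higher in members, Laptm5 and Pf4. The erythroid genes summed to 80.0 CPM at E16.5, of which Hbb-bs, a beta globin, gave 41.4, and to 6.48 and 3.71 at the later stages, and Hbb-bs was called higher in members (log2 difference 2.35). That call was lost without the E16.5 library (0.48), and the number of erythroid genes called higher went from 1 to 0 there, to 4 without the P0 library and to 2 with the members inside the deposited endothelial clusters. Members with a UMI of the leukocyte or the megakaryocyte and platelet lists are called members with a blood cell UMI below. Without them 60, 90 and 195 members were left by stage, and the comparison below gave 4843 calls in place of 5291. A UMI of the erythroid list alone did not remove a member. Genes that have near-identical copies, such as Ccl21a, the histone, H2 and Ly6 families and the pair Bglap and Bglap2, may exchange reads with them.

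The members were then compared with all other stromal cells of the same library, 8140, 6530 and 13829 cells, across all genes. Counts were summed over the cells of each library and tested with edgeR's quasi-likelihood test with the library as a block, at an adjusted p of 0.05. Of 15632 genes tested, 33.8% passed, 14.7% higher in members (2304 genes) and 19.1% lower (2987 genes), and the median log2 difference of all genes was -0.13. Because the cells were chosen for 2 endothelial transcripts, genes that go with them were bound to differ, so the calls describe what was chosen. The count of 5291 fell to 3367 without the P0 library and to 3500 without the block, and was 5755 with the members inside the deposited endothelial clusters.

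The 10 genes with the highest ratio among those over 100 CPM gave a core of vascular genes. Cldn5, the claudin of endothelial tight junctions, stood at 624 (95% exact Poisson interval 578 to 672), 723 (679 to 769) and 679 (652 to 707) CPM in the members of E16.5, E18.5 and P0. In other stromal cells it stood at 0.259, 0.279 and 0.705 CPM, a log2 difference of 10.43 ± 0.27 (SE, adjusted p = 4.3e-14, edgeR). Each SE here and below is the log2 difference, without its sign, divided by the square root of the test's F statistic. It draws on a spread pooled over genes and is not the spread of a gene's own ratios over libraries. Icam2, an adhesion molecule of endothelium and leukocytes, stood at 337, 382 and 305 CPM against 0.00863, 0.189 and 0.293 (10.67 ± 0.37). Gpihbp1, which carries lipoprotein lipase across capillary endothelium, stood at 621, 823 and 828 CPM against 0.0863, 0.522 and 0.794 (10.49 ± 0.34). The receptors Aplnr, of apelin, and Tie1, a receptor tyrosine kinase of vessels, differed by 10.15 ± 0.28 and 9.31 ± 0.31, and the transcription factor Sox17 by 10.09 ± 0.28. Gimap1, Myct1, Adgrl4, an adhesion receptor of endothelium, and C1qtnf9 completed the 10, at 10.25, 10.24, 9.82 and 9.00. Without the P0 library 8 of the 10 differences were over 1.5 times larger as folds, that of Sox17 at 11.23 on the log2 scale.

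Promoters are shown for 3 of these genes to set genes of the highest ratios beside a sequence that many vascular promoters are known to carry, the core bound by factors of the ETS family such as Erg. The windows, from RefSeq on build GRCm38.p6 (mm10), run from 250 bases before the gene's start to 50 after it. The core was searched as AGGAAG and, for the other strand, CTTCCT, and capitals mark it.
Tie1: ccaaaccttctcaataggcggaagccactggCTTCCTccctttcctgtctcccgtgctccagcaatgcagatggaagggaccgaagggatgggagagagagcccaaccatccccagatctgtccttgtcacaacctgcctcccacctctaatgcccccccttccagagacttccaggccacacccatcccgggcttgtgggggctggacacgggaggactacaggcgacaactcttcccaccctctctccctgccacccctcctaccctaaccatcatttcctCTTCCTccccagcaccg
Adgrl4: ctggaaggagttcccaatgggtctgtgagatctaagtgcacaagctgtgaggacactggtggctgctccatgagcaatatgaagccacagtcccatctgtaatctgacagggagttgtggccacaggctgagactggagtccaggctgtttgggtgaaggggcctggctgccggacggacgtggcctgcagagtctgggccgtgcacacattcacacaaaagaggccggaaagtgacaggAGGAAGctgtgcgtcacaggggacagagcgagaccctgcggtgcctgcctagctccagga
Cldn5: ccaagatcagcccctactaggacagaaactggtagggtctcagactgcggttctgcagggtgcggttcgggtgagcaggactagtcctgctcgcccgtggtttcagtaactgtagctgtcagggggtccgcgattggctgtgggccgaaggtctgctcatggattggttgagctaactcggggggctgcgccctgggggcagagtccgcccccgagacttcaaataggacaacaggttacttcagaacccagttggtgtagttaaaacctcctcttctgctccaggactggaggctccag
Tie1 lies at chr4:118489800-118490099 on the minus strand and held the core 2 times, Adgrl4 at chr3:151437632-151437931 on the plus strand held it 1 time, and Cldn5 at chr16:18776597-18776896 on the plus strand held it 0 times. Of the 21 pan-endothelial genes 12 had a window and 9 of these held the core, or 75%. Of the 11561 genes tested that had a window 37.2% held it, and of all 32851 windows 35.4%. Of the 10 genes above 6 had a window and 5 held it. A second core, AGATAA or TTATCT, of GATA factors was in 2 of the 12, in 7.75% of the genes tested that had a window and in 11.2% of all windows. A match only says that these letters stand in the window.

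The vessel lists were mostly higher in members. All 21 pan-endothelial genes passed the test, with a median log2 difference of 7.53, as did all 13 arterial genes (4.56) and all 12 tip cell genes (2.73), which mark the leading cells of sprouts. Of the sinusoidal and venous genes 13 of 14 were higher (4.11) and of the capillary and fatty acid genes 10 of 11 (4.67). Fabp4, the fatty acid carrier of capillary endothelium, stood at 4214 (4093 to 4338), 6942 (6804 to 7082) and 6109.8 (6028 to 6192) CPM against 11.2, 15.0 and 28.6 in other cells (8.15 ± 0.22, adjusted p = 6.4e-14, edgeR). Of 5 lymphatic genes tested, 3 were higher and Pdpn, podoplanin, which many stromal cells carry too, was lower (-0.82 ± 0.16, adjusted p = 0.065 without the block). With 1 library left out, 1 to 4 lymphatic genes were higher and 1 or 2 lower, the fewest higher and most lower without P0. In reverse, all 8 chondrocyte (-2.29), 6 osteolineage (-2.25), 5 fibroblast (-0.63) and 5 muscle genes (-1.74) were lower in members, as were 4 of 7 pericyte genes, with Abcc9 higher, and 1 of 5 Schwann cell genes. With the members inside the deposited endothelial clusters 6 of the pericyte and all 5 Schwann cell genes were lower, while without the P0 library 3 fibroblast genes were and without E18.5 3 Schwann cell genes. The 5 named genes lower in members were Ucma (-2.71), Omd (-2.60), 1500015O10Rik (-2.54), C1qtnf3 (-2.53) and Mia (-2.49), of which Ucma and Mia are cartilage proteins and Omd a proteoglycan of bone matrix.

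**Figure D2:**
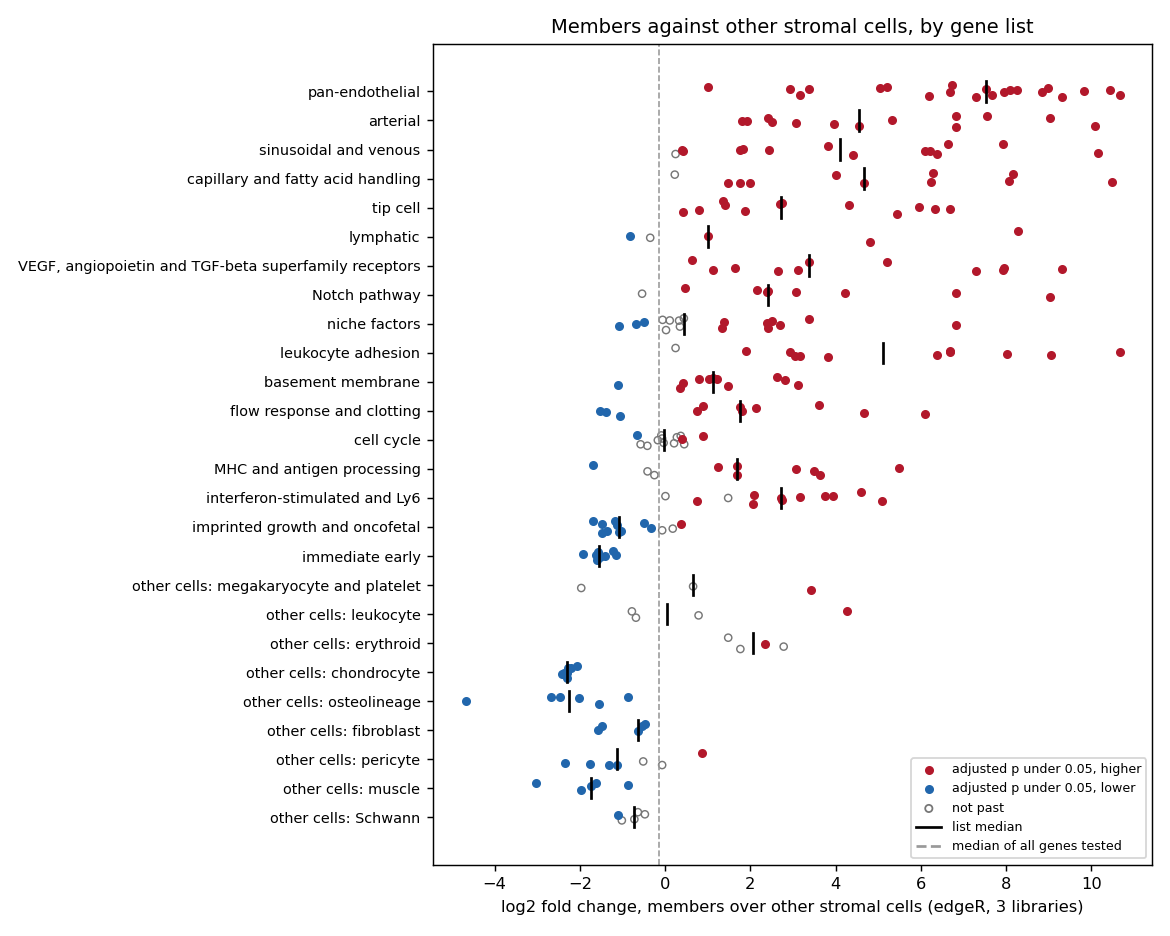
Log2 difference of members over other stromal cells (x axis, edgeR over 3 libraries) for each gene (points) of 26 gene lists (y axis), with filled points past an adjusted p of 0.05, a black bar at each list's median and a dashed line at the median of all genes tested (-0.13). The vessel lists lie to the right, up to the pan-endothelial median of 7.53, and the chondrocyte and osteolineage lists to the left.

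Growth factor receptors were higher in members throughout, with 11 of 11 past the test and a median of 3.38. Kdr, the main signalling receptor of VEGF, stood at 244 (215 to 275), 363 (332 to 396) and 278 (261 to 296) CPM, against 1.14, 0.684 and 1.19 in other cells (7.95 ± 0.21, adjusted p = 5.9e-14). Flt1, a receptor that also traps VEGF, stood at 234, 372 and 357 CPM (7.29 ± 0.16), and Tek, the angiopoietin receptor, at 83.7, 92.2 and 75.6 CPM (5.20 ± 0.18). Of the Notch pathway 8 of 9 genes were higher (2.40). Dll4, the ligand of arterial and sprouting endothelium, stood at 29.4, 36.7 and 30.5 CPM, against 0.0345, 0.0360 and 0.0731 in the other cells (9.02 ± 0.43). Notch1 differed by 2.15 ± 0.15, Notch4, the receptor known from endothelium, by 4.22 ± 0.33, and the ligand Jag1 by 2.40 ± 0.23.

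Genes of the hematopoietic niche were split. Of 17 tested, 8 were higher in members and 3 lower, with a median of 0.44, and with the members inside the deposited endothelial clusters 7 were higher and 5 lower. Kitl stood at 177 (153 to 203), 248 (222 to 275) and 220.0 (205 to 236) CPM in members, against 18.5, 20.6 and 14.5 in other stromal cells (3.37 ± 0.13, adjusted p = 3.8e-12). The members stood above the other cells in each library, and the adult members were at 229 CPM against 45.7. Cxcl12 stood at 72.7 (57.5 to 90.6), 670.4 (628 to 715) and 461 (439 to 484) CPM, against 47.7, 34.3 and 47.5 (2.70 ± 0.40, adjusted p = 5.4e-05). The sum of all E16.5 members stood above the other stromal cells by far less than those of E18.5 and P0. Of the 79 counts at E16.5, 60 lay in 17 cells led by fibroblast genes (cluster 2 below), at 253 CPM, and the E16.5 members outside the groups led by fibroblast and cartilage genes stood at 9.35 CPM. The difference was 3.56 without the E16.5 library and 1.98 without E18.5. The cytokine gene Tgfb1 was also higher (1.34 ± 0.13), as were Vegfc, the lymphatic growth factor (2.50 ± 0.30), and Wnt2 (1.39 ± 0.44), at no more than 9.20 CPM. Wnt2 turned to -1.50 with the members inside the deposited endothelial clusters. Igf2, an insulin-like growth factor, was lower at 69.0, 62.6 and 73.9 CPM against 131, 113 and 125 (-1.07 ± 0.12), and Ptn, pleiotrophin, differed by -0.68 and Tgfb2 by -0.49. Ptn passed in 14 of 16 alternative settings, with a highest adjusted p of 0.86, and Tgfb2 in 9 of 16, with a highest of 0.28.

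Genes of the vessel wall followed. Of the leukocyte adhesion genes 11 of 12 were higher (5.10), among them Podxl, a sialomucin of the luminal surface (8.03 ± 0.20), and F11r, a junctional adhesion molecule (6.69 ± 0.18). Vcam1, to which leukocytes and progenitors adhere, did not pass (0.25 ± 0.36, adjusted p = 0.66). Of the basement membrane genes 10 of 11 were higher, with Col4a1, a chain of type IV collagen, at 1093, 2184 and 1796 CPM against 182, 178 and 241 (2.81 ± 0.15). Sparc, a matrix protein of bone and basement membrane, was lower (-1.11 ± 0.15), though not in DESeq2 (adjusted p = 0.30). Of the flow and clotting genes 8 of 11 were higher, including Thbd, thrombomodulin (3.61 ± 0.16), and Nos3, the endothelial nitric oxide synthase (4.68 ± 0.31). Among the lower genes were Klf2 (-1.38 ± 0.14) and Klf4 (-1.06 ± 0.11), factors known to respond to flow. All 8 immediate early genes were also lower (-1.55), with Fos at 619, 829.6 and 1119.8 CPM against 1597, 2636 and 2473.

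Immune and growth programmes set the members apart as well. Of the MHC and antigen processing genes 7 of 10 were higher (1.69) and H2-Ab1, a class II gene, was lower (-1.69 ± 0.42) at under 4 CPM. H2-Ab1 stood at -3.09 without the P0 library and passed in 13 of 16 alternative settings, with a highest adjusted p of 0.83. Of the interferon-stimulated and Ly6 genes 10 of 12 were higher (2.73), with Ly6c1, a surface antigen of endothelium and of some leukocytes, at 76.4, 223 and 308 CPM against 1.80, 3.89 and 10.5 (5.10 ± 0.18). Of 13 imprinted growth and oncofetal genes 10 were lower in members (-1.07), among them Dlk1 (-1.17 ± 0.10), Meg3 (-1.47 ± 0.10) and Cdkn1c, a cell cycle inhibitor (-1.36 ± 0.11), while Mest was higher (0.38 ± 0.11), which passed in 14 of 16 alternative settings. Of 13 cell cycle genes 2 were higher and 1 lower, with a median of -0.03, and with the members inside the deposited endothelial clusters 2 were lower. With 1 library left out, 1 (without P0) to 4 (without E18.5) were higher and 1 (without E18.5) to 3 (without P0) lower.

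Besides CD31, 3 of the 29 antibody tags are given, for proteins of stromal cells. CD140a, the protein of Pdgfra on fibroblasts, had medians of 2, 0 and 4 counts per member against 3, 1 and 3 in other stromal cells. The members outside the deposited endothelial clusters had medians of 53, 9 and 14, and those inside 2, 0 and 3. Ly6AE, the Sca-1 protein, had 5, 6.5 and 21 against 4, 5 and 15, and CD73 had 8, 8 and 13 against 24, 14 and 15, with 25, 18 and 21 in the members outside and 7, 7 and 12 in those inside. The quartiles of members and other cells overlapped for these 3 tags in each library.

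The stages were compared by size alone, since each is 1 library. A gene was taken as past the rule where its CPM differed by 2-fold or more, the exact Poisson intervals did not overlap and the higher library held 50 or more counts. From E16.5 to P0 7.22% of 7163 genes that could pass were higher (517 genes) and 0.838% lower (60). From E16.5 to E18.5 6.75% of 4162 were higher (281) and 0.601% lower (25), and from E18.5 to P0 1.62% of 7163 were higher (116) and 0.279% lower (20). The P0 library is the deepest, so 50 counts are a lower CPM there, and with 100 CPM also asked of the higher side 117 genes were higher and 27 lower from E16.5 to P0. The members inside the deposited endothelial clusters gave 462 and 49 from E16.5 to P0, 261 and 54 from E16.5 to E18.5, and 197 and 27 from E18.5 to P0. Of their 315 genes between E16.5 and E18.5, 168 were among the 306 above. With the rule of 1 UMI 282 were higher and 55 lower from E16.5 to E18.5, of which 79 were among the 306, and 130 were higher and 68 lower from E18.5 to P0, of which 46 were among the 136 above. From E16.5 to P0 the rule of 1 UMI gave 459 higher and 110 lower, of which 283 were also past with the rule of 2 UMIs. With the library size taken without mitochondrial, ribosomal protein, globin and ribosomal RNA-derived genes 195 were higher and 40 lower from E16.5 to E18.5. With each cell thinned to 1000 UMIs 54 and 3 were past the rule.

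From E16.5 to E18.5 5 of 11 niche, 5 of 9 arterial and 3 of 9 capillary genes that could pass were higher and none lower, and with the members inside the deposited endothelial clusters 4, 6 and 4 were higher, with 1 niche gene lower. Cxcl12 was 9.23 times higher at E18.5 and 6.34 times higher at P0 than at E16.5, with the same ratio of P0 to E16.5 at 0.996 in other stromal cells. Outside the groups led by fibroblast and cartilage genes the ratios were 103 and 72.2, from 6 counts at E16.5. Jag1, the Notch ligand, went from 21.2 to 78.5 and 57.6 CPM, and Vegfc from 7.36 (3.18 to 14.5) to 43.2 (33.0 to 55.6) and 29.1 (23.7 to 35.3). Kitl, by contrast, did not pass, with ratios of 1.40 and 1.25. In all, 4 of 14 niche genes that could pass were higher at P0 than at E16.5 and none lower, and 4 were higher with the members inside the deposited endothelial clusters. Of the arterial genes 5 of 12 were higher at P0 (median ratio 1.79), namely Hey1, a Notch target, Sema3g, Unc5b, Vegfc and Stmn2. Of the Notch pathway genes 3 of 7 were higher, Notch4, Jag1 and Hey1, the first at 10.1, 33.1 and 33.1 CPM. These lists overlap. Vegfc is in the niche and arterial lists, Jag1 in the niche and Notch lists, and Hey1 in the arterial and Notch lists. Hey1 and Unc5b turned to a lower P0 level after thinning, with few counts left. With the rule of 1 UMI Hey1, Jag1, Unc5b and Stmn2 did not pass, nor did Hey1, Jag1, Vegfc and Stmn2 without the members that held a blood cell UMI.

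Of the capillary and fatty acid genes 3 of 10 were higher at P0 than at E16.5 and 1 was lower. Cd36, a fatty acid translocase, stood at 146 (124 to 171), 443 (409 to 479) and 454 (432 to 477) CPM, and Aqp1, a water channel, at 125 (105 to 148), 557 (518 to 597) and 492 (469 to 516). Lpl, lipoprotein lipase, stood at 16.6, 87.1 and 94.2 CPM. In each the E16.5 members were the lowest, and E18.5 and P0 were close to each other. Over the stages Lpl stood at 158 and 52.8 CPM in clusters 2 and 3 below, led by fibroblast and cartilage genes. In cluster 1, led by capillary genes, it stood at 71.5 CPM. Tcf15, a transcription factor of the same list, was lower at P0, at 146, 122 and 61.9 CPM. Fabp4 did not pass, at ratios of 1.65 and 1.45. Of the sinusoidal genes 2 of 11 were higher at P0, Vcam1, at 0.920 (0.0233 to 5.13), 31.7 and 34.5 CPM, and Lrg1, which promotes angiogenesis, at 5.52, 27.4 and 30.5. None of the 11 growth factor receptors passed between E16.5 and P0, and of the 21 pan-endothelial genes only Ptprb, an endothelial phosphatase, did, at 101, 287 and 257 CPM. Without the members that held a blood cell UMI Vcam1, Lrg1 and Tcf15 did not pass, and Vcam1 did not with the rule of 1 UMI.

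Antigen presentation and interferon-stimulated genes passed in large shares. From E16.5 to P0 5 of 6 MHC and antigen processing genes were higher (median ratio 3.28) and 7 of 11 interferon-stimulated and Ly6 genes (2.91), against the background of 7.22%. H2-D1, a class I heavy chain, stood at 114 (94.9 to 136), 305 (277 to 336) and 321 (303 to 341) CPM in members, and at 8.94, 17.6 and 29.6 in other stromal cells. Isg15, a ubiquitin-like protein induced by interferon, stood at 21.2 (13.4 to 31.7), 163 (142 to 185) and 135 (123 to 148) CPM against 2.43, 2.17 and 5.91. Ly6c1 was 4.04 times higher at P0 than at E16.5 in members and 5.81 times higher in other cells, from a far lower level. H2-D1 likewise had ratios of 2.82 and 3.30, so the difference was also seen outside the members. With the members inside the deposited endothelial clusters 4 and 8 genes were higher.

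Of the cell cycle genes 1 of 13 was higher at P0, Cenpf, a kinetochore protein, and none with the members inside the deposited endothelial clusters, while 2 were lower, Tyms, which makes thymidylate, at 123, 72.7 and 53.7 CPM, and Mcm5, a subunit of the replicative helicase. With the members inside the deposited endothelial clusters 2 were lower as well, though Mcm5 did not pass. None of 11 imprinted growth and oncofetal genes passed. The 5 genes with the lowest P0 to E16.5 ratio over 100 CPM were Peg10 (0.321), Dut (0.379), Nme1 (0.380), Lsm6 (0.389) and Hpf1 (0.406), and each also had a low ratio in the other stromal cells, from 0.403 to 0.595. The 5 with the highest ratio were Ccl21a, Prg4, Chad, Omd and Cd300lg. Cd300lg, a mucin of capillary and venous endothelium, stood at 21.2 (13.4 to 31.7), 97.9 (82.2 to 116) and 139 (127 to 152) CPM against 0.0863, 0.117 and 0.345. Prg4, Chad and Omd are matrix genes of joint, cartilage and bone that stood lower in members than in other cells, and their ratios in the other cells were 21.6, 2.90 and 3.58.

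Transcripts of cartilage, fibroblasts and other cells moved with stage in the members. The osteolineage genes summed to 30.4, 126 and 123 CPM and the muscle genes to 7.36, 15.1 and 59.6. The Schwann cell genes summed to 4.60, 41.0 and 43.4 CPM. From E16.5 to P0 2 of 2 osteolineage, 1 of 1 muscle and 2 of 2 Schwann cell genes that could pass were higher. With the members inside the deposited endothelial clusters 1, 1 and 0 were. Of the pericyte genes 3 of 6 were higher at P0 than at E18.5. The 8 chondrocyte genes summed to 4628, 7215 and 12305 CPM in members against 18149, 46438 and 38957 in other stromal cells. In the members inside the deposited endothelial clusters they summed to 4748, 2785 and 10614 CPM, so E18.5 was there the lowest stage. With these members 3 chondrocyte genes were lower at E18.5 than at E16.5 and 7 higher at P0 than at E18.5, where all members gave 0 and 0. Of the fibroblast genes 4 of 5 were higher at E18.5 than at E16.5 in all members and 1 with those inside. The 5 fibroblast genes summed to 1617, 3777 and 3294 CPM in members, 614, 1002 and 1271 in those inside, and 2860, 3926 and 4810 in other stromal cells. All 8 and all 5 were detected in each library. Their part in the stage differences was not tested. With the members outside the groups led by fibroblast and cartilage genes, described next, 444 genes were higher and 39 lower from E16.5 to P0, and 300 of these 483 were among the 577 above. Cxcl12, Cd36 and H2-D1 then stood at 9.35, 963 and 675 CPM, at 224, 714 and 790.4 CPM and at 176, 459 and 528 CPM.

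**Figure D3:**
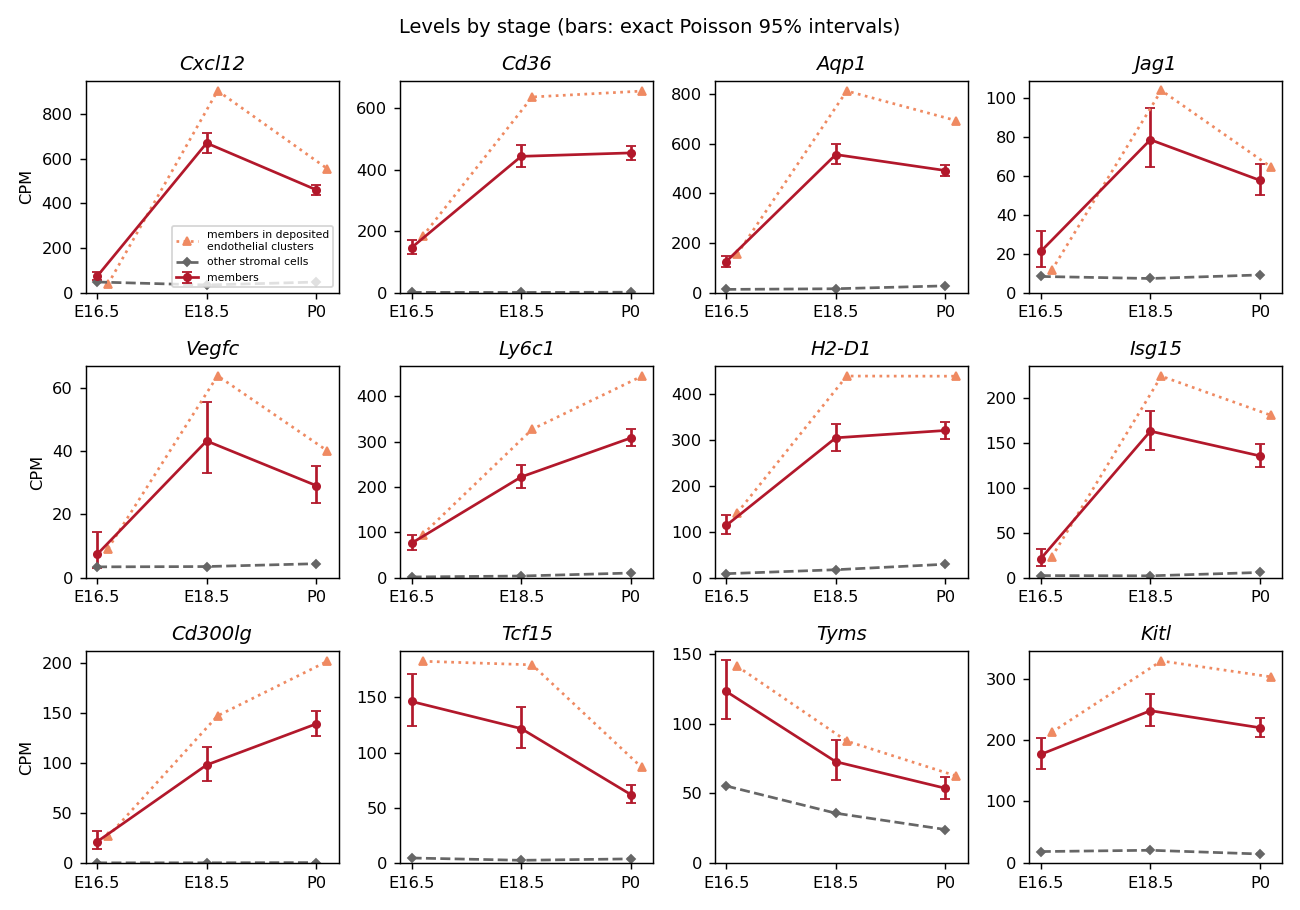
Levels in CPM (y axis, from 0) of 12 genes in the E16.5, E18.5 and P0 libraries (x axis) for members (circles, bars are exact Poisson 95% intervals), members in the deposited endothelial clusters (triangles) and other stromal cells (diamonds). Cxcl12, Cd36, Aqp1, Jag1, Vegfc and Isg15 were higher at E18.5 than at E16.5 in members, Tcf15 and Tyms were lowest at P0, and Kitl did not pass the size rule.

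The members fell into 6 groups by Leiden clustering on all their genes, which is a description without a test. Cluster 1, with 181 cells (40, 42 and 99 by stage), was led by Timp4, C1qtnf9, Apln and Gpihbp1, at 1729 CPM against 418 in the rest, and held the capillary list at 19401 CPM. Cluster 6, with 39 cells (2, 14 and 23), was led by Sema3g, Vegfc, Gja4, Jag2 and Stmn2 and is called arterial-like for these markers, with the arterial list at 4594 CPM against 428 in the rest. Cluster 5, with 40 cells (9, 10 and 21), was led by Hist1h2ae and Rrm2, and held the cell cycle list at 3194 CPM against 441. Cluster 4, with 46 cells (9, 13 and 24), mixed lymphatic genes with Vwf, the von Willebrand factor, Bmx and Eln, elastin. It held the sinusoidal and venous list at 2371 CPM against 633 in the rest, the highest of the clusters. Its arterial list stood at 1496 CPM against 626, second to cluster 6, so arterial genes were not confined to cluster 6. In it 4 cells held 2 or more UMIs of Ccl21a, a lymphatic chemokine, 0, 1 and 3 by stage, and each of them held 2 or more of Mmrn1 and of Prox1, the lymphatic master regulator. None of the 4 held 2 or more of Vwf or Bmx, which 28 and 10 of the other 42 cells did. Of the 4 cells 3 held 2 or more UMIs of Lyve1, and none of the other 42 cells of the cluster did. Over all members Ccl21a stood at 0, 36.0 and 148 CPM and Lyve1 at 0, 0.720 and 25.1 CPM.

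The remaining clusters carried other stromal programmes. Cluster 2, with 81 cells (17, 24 and 40), was led by Ccl11, Igfbp6 and Cldn1, with the fibroblast list at 9686 CPM and the pan-endothelial list at 1524 CPM, and 11 of its cells lay in the deposited endothelial clusters. Cluster 3, with 66 cells (9, 9 and 48), was led by Spp1, Acan and Wif1 and held Col2a1, the collagen of cartilage, at 25648 CPM against 1231 in the rest, with 2510 CPM of the pan-endothelial list. Of its cells 40 lay in the deposited endothelial clusters. Its median of 22301 UMIs per cell was 191% of the median of members of the same library. Whether its barcodes hold more than 1 cell was not tested.

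**Figure D4:**
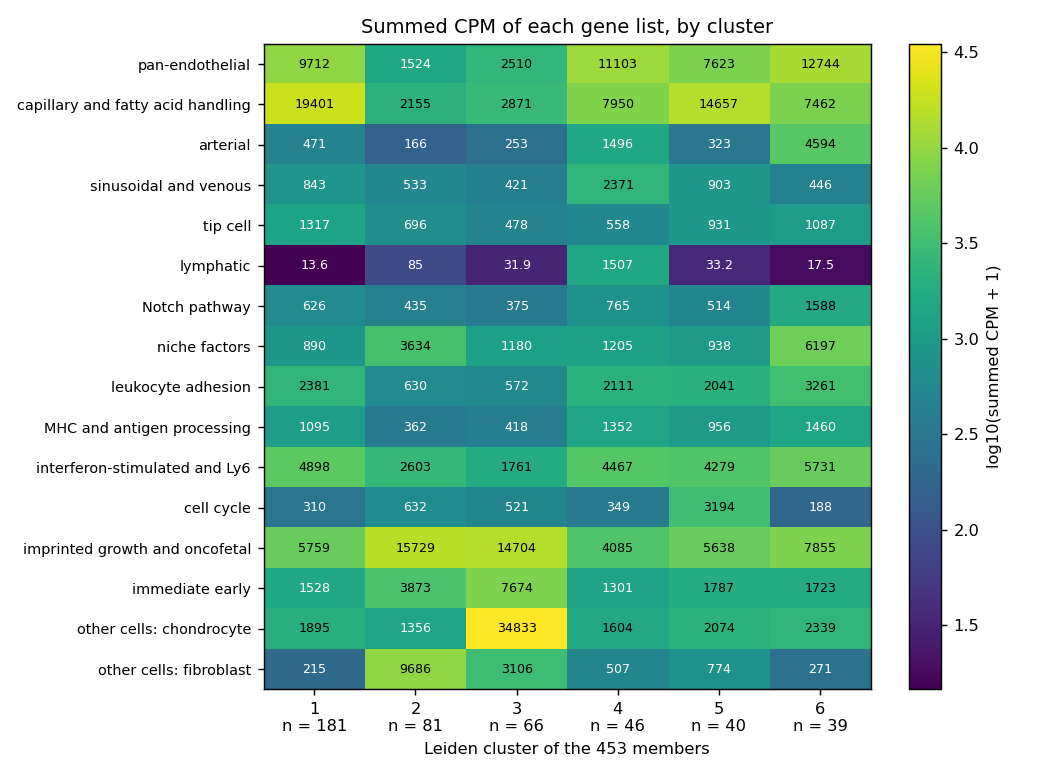
Summed CPM (numbers and colour, on a log10 scale) of 16 gene lists (rows) in the 6 Leiden clusters of members (columns, with the number of cells). Cluster 6 held the highest arterial, Notch and niche sums (4594, 1588 and 6197 CPM), cluster 2 the highest fibroblast sum and cluster 3 the highest chondrocyte sum. The arterial, Notch and niche lists share genes, such as Jag2, and Cxcl12 alone gave 4108 CPM of the niche sum.

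The clustering started from all genes, Cxcl12 among them, so its level by cluster is a description and no separate result. Cxcl12 was itself a leading gene of the arterial-like cluster 6, at 4108 CPM against 177 in the rest. By stage it stood there at 329 CPM (107 to 767) in 2 cells at E16.5, at 4977 (4627 to 5346) in 14 cells at E18.5 and at 3791 (3545 to 4049) in 23 cells at P0. In cluster 1 it stood at 2.56, 68.0 and 227 CPM. Outside cluster 6 it stood at 69.0, 145 and 224 CPM, and 60 of the 74 counts at E16.5 lay in cluster 2. Vegfc outside cluster 6 stood at 4.66, 10.5 and 15.9 CPM and Jag1 at 21.5, 32.3 and 38.2, while Cd36 stood at 145, 424 and 428 CPM and Ly6c1 at 76.5, 189 and 277, close to their values in all members. Jag1 differed by less than 2-fold between stages outside cluster 6. The part of the number of arterial-like cells in the stage differences was not tested.

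Last, the 3 perinatal sums were compared with the sum of 663 adult cells chosen by the same rule from 6267 adult stromal cells (10.6%, 9.83% to 11.4%). The adult members held a median of 5939 UMIs per cell, below those of each perinatal library. This edgeR fit sets 3 libraries against 1, and the lone adult sum is assumed to vary like the perinatal ones. Of 11909 genes tested 13.8% passed, 5.95% higher in perinatal members (709) and 7.84% lower (934), and the median difference was -0.01. Leaving out the E16.5 library gave 2818 calls in place of 1643, and the members in the deposited endothelial clusters gave 918. DESeq2 called 854, of which 57.3% were higher in perinatal members, against 43.2% in edgeR.

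Imprinted growth genes set the perinatal members apart. Of 13 imprinted growth and oncofetal genes 12 were higher than in the adult, with a median log2 difference of 4.28, and 12 were called with the members inside the deposited endothelial clusters. Dlk1, a Notch-like protein of growing tissues, stood at 789 (737 to 844), 1449.6 (1387 to 1514) and 1520.5 (1479.9 to 1562) CPM and at 1.39 (0.601 to 2.74) in adult members (10.01 ± 0.70, adjusted p = 1.4e-06). H19, a long non-coding RNA, stood at 1934, 2767 and 2394 CPM against 26.1 in the adult (6.74 ± 0.50), and Igf2 at 69.0, 62.6 and 73.9 against 0.522 (7.17 ± 0.55). Each perinatal library stood above the adult one in these genes, and the other stromal cells carried the same contrast, with Dlk1 at 1644, 2508 and 2986 CPM against 5.49. Among the members Dlk1 was highest in clusters 2 and 3, led by fibroblast and cartilage genes, at 3399 and 2132 CPM. In clusters 1, 4 and 5 it stood at 155, 101 and 227 CPM, and the arterial-like cluster 6 lay above these and below clusters 2 and 3. Besides Dlk1 and H19, the 5 named genes were Gpc3 (5.77 ± 0.51), a glypican of fetal growth, the histone gene Hist1h2ae (5.66 ± 0.51) and Tmem255a (5.43 ± 0.48). Division genes went the same way, with 10 of 13 cell cycle genes higher (2.00). Mki67 stood at 44.2, 88.6 and 69.6 CPM against 15.8 in the adult (2.34 ± 0.39, adjusted p = 0.0017, edgeR). Mdk, midkine, was higher by 3.43 ± 0.43, as were Ptn (2.41 ± 0.40) and Fabp5, a fatty acid carrier (2.26 ± 0.39). Mdk stood at 785 and 131 CPM in clusters 2 and 3, and at 14.2 and 96.9 in clusters 1 and 4. Ptn stood at 1067 and 329 CPM in clusters 2 and 3, and at 60.3 and 113 in clusters 1 and 4.

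Sinusoidal and immune genes were lower in perinatal members. Of the 14 sinusoidal and venous genes 10 were lower (-2.25), and 10 also with the members inside the deposited endothelial clusters. Stab2, the scavenger receptor of sinusoids, stood at 0 (0 to 3.39), 9.36 (4.98 to 16.0) and 7.42 (4.85 to 10.9) CPM against 157 (147 to 167) in the adult (-4.39 ± 0.47, adjusted p = 5.1e-05 in edgeR and 0.29 in DESeq2). Stab1 stood at 33.1, 35.3 and 41.4 CPM against 198 (-2.17 ± 0.28), Selp, P-selectin, at 3.68, 6.48 and 5.42 against 85.1 (-3.74 ± 0.33), and Ackr1, the atypical chemokine receptor of venules, at 0.920, 9.36 and 6.28 against 119.5 (-4.09 ± 0.41). No perinatal library reached the adult level in any of these. In the other stromal cells the sinusoidal and venous list summed to 164, 163 and 174 CPM against 464 in the adult. The contrast of the list sum was thus also seen outside the members, for which the genes named above are not given singly. Nr2f2 and Ephb4, venous identity genes, did not pass (-0.14 ± 0.30 and -0.36 ± 0.30). Of the arterial genes 2 of 13 were lower, Dll4 and Sema3g, 1 without the E18.5 and 1 without the P0 library, and neither passed with the members inside the deposited clusters.

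Of the MHC and antigen processing genes 9 of 10 were lower in perinatal members (-2.16), and 6 with the members inside the deposited endothelial clusters, with H2-K1 at 14.7, 71.3 and 54.8 CPM against 823 (-3.87 ± 0.44). H2-K1 was at 6.54, 16.0 and 12.9 CPM against 248 in the other stromal cells, so the contrast was also seen outside the members. Of the interferon-stimulated and Ly6 genes 5 of 12 were lower and Ifitm1 was higher, and with the members inside 4 were lower and none higher. Ifitm1 stood at 6.41 CPM in the perinatal members inside and at 119.95 in those outside. Ly6a, the gene of Sca-1, stood at 23.9, 138 and 135 CPM against 1499.8 (-3.67 ± 0.52), with an adjusted p of 0.052 in DESeq2. Of the adhesion genes 6 of 12 were lower, and 4 with the members inside, Vcam1 among the 6 (-2.52 ± 0.56, adjusted p = 0.63 in DESeq2), and of the flow and clotting genes 4 of 11, including F8, clotting factor VIII, at 7.36, 13.0 and 7.71 CPM against 91.4 (-3.08 ± 0.32). Of the pan-endothelial genes 5 of 21 were lower, 2 with the members inside and 10 without the E16.5 library, with Plvap, the diaphragm protein of fenestrated vessels, at 234, 229 and 222 CPM against 1146 (-2.07 ± 0.28). None of the 12 tip cell genes passed with all 3 perinatal libraries under the rule of 2 UMIs and the filter on low counts, while without the E16.5 library 2 were higher, without P0 1, and with the rule of 1 UMI 5 were lower. Cxcl12 did not pass either, at -1.08 ± 0.65 with an adjusted p of 0.29, though it did in 4 of 13 alternative settings, at -0.60 without the E16.5 library and -1.58 without E18.5 among them. Kitl did not pass (0.15 ± 0.31). The lists compared with the adult share genes, so their counts are not separate. Vcam1, Selp and Ackr1 are in the adhesion and sinusoidal lists, and Vwf and Tfpi in the flow and sinusoidal lists. Icam2, Cd34 and Esam are in the adhesion and pan-endothelial lists.

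The 5 named genes lower in perinatal members were Bglap, Ibsp, Bglap2, Ptx4 and Cilp, of which the first 3 encode bone matrix proteins. Bglap2 did not pass with the members inside the deposited endothelial clusters. Ibsp stood at 1.84, 0.720 and 1.71 CPM against 515 in adult members (-8.14 ± 0.38) and Bglap at 0, 0 and 0.856 against 889. In the adult other stromal cells the same genes stood at 2612 and 1178 CPM, and the 6 osteolineage genes summed to 2401 CPM in adult members and to 30.4, 126 and 123 in perinatal ones. Of these 6 genes 5 were lower in perinatal members, as were 3 of 7 pericyte genes, 2 of 5 fibroblast genes and 1 of 8 chondrocyte genes, with 2 chondrocyte genes higher. With the members inside the deposited clusters 1 fibroblast gene and no chondrocyte gene was lower. With 1 perinatal library left out 4 or 5 pericyte genes were lower, and without the E16.5 library 4 chondrocyte and 3 fibroblast genes were higher. The Schwann cell genes had a median log2 difference of 3.24, the muscle genes of -1.16 and the erythroid genes of -1.67. The part of other cells' transcripts in these differences was not tested.

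**Figure D5:**
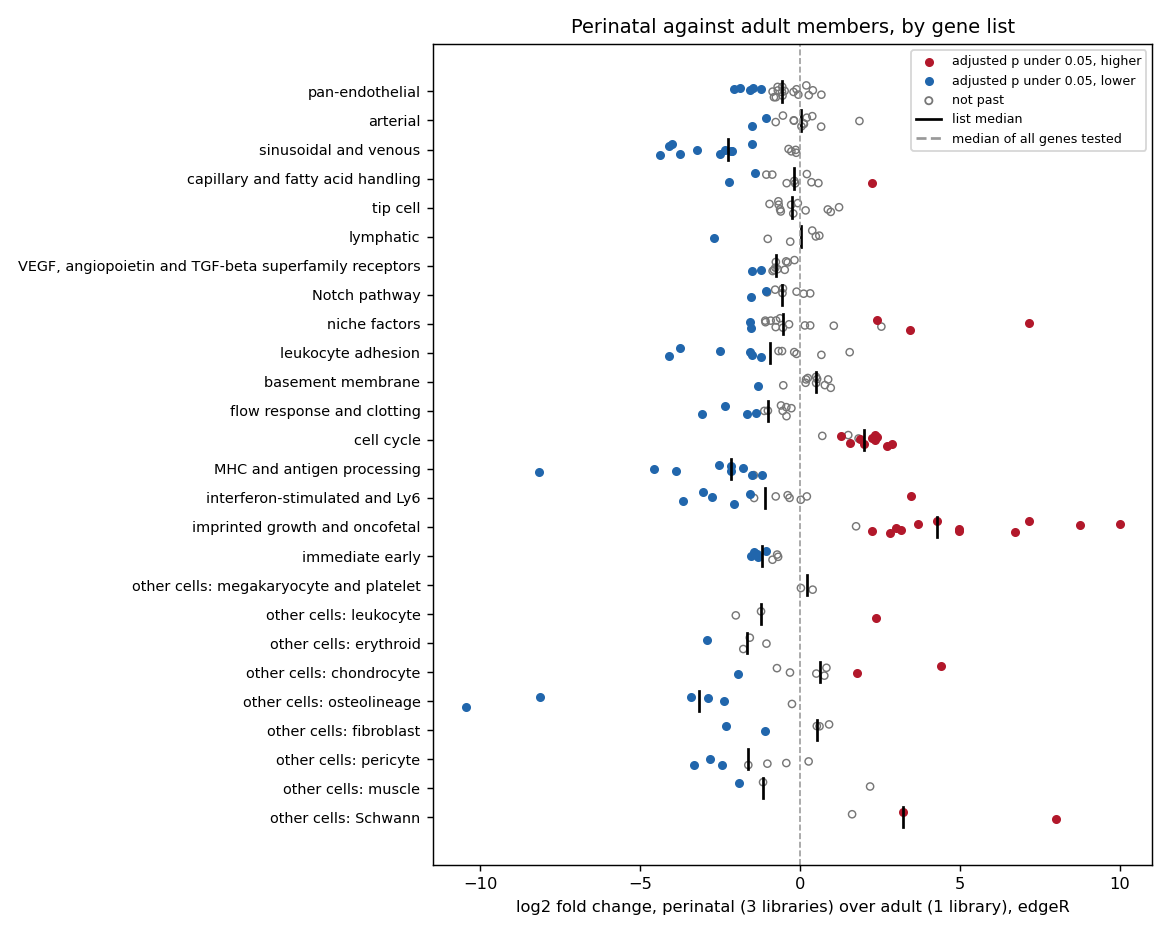
Log2 difference of the 3 perinatal sums of members over the adult sum (x axis, edgeR) for each gene (points) of 26 gene lists (y axis), with filled points past an adjusted p of 0.05, black bars at list medians and a dashed line at the median of all genes tested (-0.01). The imprinted and cell cycle lists lie to the right (medians 4.28 and 2.00), and the sinusoidal and MHC lists to the left (-2.25 and -2.16).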

How the data were processed

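Gene counts were UMI counts from droplet libraries (Chromium 3′ v3.1), and per the labels the authors used Cell Ranger 3.1.0, R 4.0 and Seurat 3.1.5 with build mm10. The deposited antibody counts are raw tag counts per cell. The deposited metadata give cell type, cluster and the mitochondrial share of counts, a fraction in a column named as percent. Deposited cells held at least 368 UMIs and at most 7.50% mitochondrial counts. Per the methods the authors removed cells of high gene and UMI number, and no doublet caller was run here. A further 12 columns were not used.

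Members and gene lists were chosen with earlier results of these data known. Counts were summed per library over members and over the other stromal cells and tested with edgeR 4.0.16 (TMM, filterByExpr, quasi-likelihood, R 4.3.3) with the library as a block, leaving out Cdh5 and Pecam1, which stayed in library sizes. The spread in this test is that over stages, since the 3 libraries are 3 stages. Stages were compared without a test, by CPM with exact Poisson intervals (SciPy 1.17.1). The adult comparison used edgeR without a block. Adjusted p-values are Benjamini-Hochberg over all genes tested. Clusters came from Scanpy 1.11.5 (Leiden).

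Named genes were those of the 26 lists (242 genes, 241 in the matrix) and, at 100 CPM or more on the higher side, the 10 highest and 5 lowest in members among genes moving the same way in all 3 libraries, the 5 most changed each way between E16.5 and P0, and the 5 each way between perinatal and adult members. Mitochondrial, ribosomal protein and globin genes were left out of these. Alternatives covered DESeq2 1.42.0, normalization, filters, the member rule, left-out libraries and thinned cells. The values of 1 listed gene are not reported here.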

Additional observations from a re-analysis of the deposited data

Results flagged for a closer look

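In 3 genes members and other stromal cells went opposite ways between E16.5 and P0, and with 1 library per stage the difference was not tested. In members each gene was past 2-fold with intervals apart. In other stromal cells each was past 2-fold by the CPM ratio alone, with no intervals asked. Ablim3, which encodes an actin-binding protein, had a P0 over E16.5 ratio of 2.09 in members, at 18.4, 41.8 and 38.5 CPM by stage, and of 0.247 in other stromal cells, at 3.06, 0.639 and 0.758 CPM. Ramp3, a partner of the calcitonin-like receptor that binds adrenomedullin, had a ratio of 3.31 in members (11.0, 13.0 and 36.5 CPM) and of 0.496 in other cells (5.09, 1.51 and 2.53 CPM). Unc45b, a myosin chaperone, had a ratio of 3.75 in members (11.0, 31.7 and 41.4 CPM) and of 0.393 in other cells (0.811, 0.135 and 0.319 CPM).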

How the results depend on the processing

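The number of members was 1010 with 1 or more UMIs, 388 with 3 or more, 388 in the deposited clusters made mostly of members and 354 for members inside those clusters. Against other stromal cells the 5291 calls became 3500 with no replicate block, 2021 with cells thinned to 1000 UMIs, and 3367 to 5007 when 1 library was left out, lowest without P0. The share of calls higher in members moved from 43.5% to 52.8% with DESeq2 and to 52.9% with the rule of 1 UMI. Against the adult the 1643 calls became 2727 with 1 or more UMIs, 854 with DESeq2, which left 5156 adjusted p-values undefined, 959 with the deposited clusters, 918 with members inside them, and 1457 to 2818 when 1 perinatal library was left out, highest without E16.5. From E16.5 to P0 the 577 genes past the size rule became 57 after thinning, 221 at 3-fold and 144 at 100 CPM. From E16.5 to E18.5 the 306 became 27, 66 and 92. From E18.5 to P0 the 136 became 13, 46 and 26, and 222 and 224 with the deposited clusters and the members inside them. Thinning leaves fewer counts, and the cause of the other changes was not tested. The 100 CPM rule, the members inside deposited clusters and those outside clusters 2 and 3 were chosen after seeing the data. Against other cells Wnt2 turned to -0.017 with 3 UMIs, -1.55 with the deposited clusters, -1.50 with members inside them and -0.16 without members with a blood cell UMI. Vcam1 turned to -0.41 with DESeq2, -0.83 without such members, and lay between -0.28 and 0.88 with 1 library left out, the 2 negative values without P0 and without E18.5. Without such members Laptm5 and Pf4, which define them, turned to -7.81 and -8.66. Against the adult Kitl turned to -0.49 with 1 or more UMIs. After thinning Hey1 and Unc5b turned to -0.11 on the log2 scale. With 86 members at E16.5, a gene without a count there may stand at up to 3.39 CPM by counting error alone.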
